A study of Mus musculus with 60 samples.

Results

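The genes described here are the nuclear-encoded subunits of the 5 oxidative phosphorylation complexes of mouse intestinal epithelial cells. They were taken by name from the deposited gene table as the protein-coding entries of the Ndufa, Ndufb, Ndufc, Ndufs and Ndufv series, Sdha to Sdhd, and the Uqcr, Cox4i, Cox5, Cox6, Cox7, Cox8 and Atp5 series. This gave 88 of the 21833 protein-coding entries and of the 55357 entries in all; a further 16 entries with such names were not protein coding and were left out. The 88 comprise 7 core and 32 accessory or supernumerary entries of complex I, 4 of complex II, 8 of complex III, 19 of complex IV and 18 of complex V. Ndufab1 and Cyc1, which encodes cytochrome c1 of complex III, do not match the name pattern and are not among the 88. Atp5o is listed under 2 gene identifiers, and the pseudogene-like entry Cox5b-ps is typed as protein coding. Of the 88, 81 passed the filter on low counts and were tested. The 7 that did not pass were Cox8c and Atp5o ENSMUSG00000116933.2, with no count in any library, Cox7b2, Ndufb11b, Cox8b and Ndufa4l2, with at most 3, 4, 16 and 28 counts in a library, and Cox4i2, with at most 92.

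Complex I (NADH dehydrogenase) and complex II (succinate dehydrogenase) pass electrons to ubiquinone, complex III (cytochrome bc1) passes them on to cytochrome c, and complex IV (cytochrome c oxidase) to oxygen. Complex V, the ATP synthase, uses the proton gradient built by complexes I, III and IV. The mitochondrial genome encodes a small part of the subunits, and the nuclear ones described here must be imported. In the intestinal epithelium, absorptive cells take up and use fuels under high energy demand, whereas crypt base stem cells are cycling cells with a metabolism of their own.

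All 60 libraries come from Lgr5-2A-eGFP mice of 8 weeks of age, in which eGFP is made together with Lgr5, a receptor gene of crypt base stem cells. For sampling, the small intestine was cut into 3 equal parts and the colon into 2, and the dissociated epithelial cells of each were sorted by flow cytometry into 3 fractions by GFP brightness. Each of the 15 groups (GFP-high, GFP-intermediate and GFP-negative cells of 5 gut parts, namely the proximal, middle and distal sections of the small intestine and the proximal and distal colon) had 4 polyA RNA-seq libraries, numbered 1 to 4. The gates are a sort by reporter brightness, so the GFP-high and GFP-intermediate fractions can hold crypt cells other than stem cells, and the GFP-negative fraction holds all cells without reporter. Nothing states that the 4 replicates are separate animals, so the p-values measure the spread between libraries. In such bulk samples, fewer cells of a type and less RNA per cell cannot be told apart.

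The libraries held 55411864 to 113917959 counts each, with a median of 81230235. Mean Lgr5 levels were 203 to 544 CPM (counts scaled to the library total, after TMM correction) in the GFP-high groups, 74.1 to 143 CPM in the GFP-intermediate groups and 2.67 to 12.2 CPM in the GFP-negative groups. The 9 epithelial markers, Epcam and Cdh1 among them, summed to at least 7652 CPM in every library. The summed level of 18 leukocyte markers, Ptprc and Cd3e among them, was 6.93 to 47.6 CPM in GFP-high libraries, 7.23 to 48.1 CPM in GFP-intermediate libraries and 140 to 4029 CPM in GFP-negative libraries, and at least 17 of the 18 were called lower in GFP-high cells of each gut part. All 10 Paneth cell markers were called higher in the GFP-high fraction of each small intestinal part when set against the GFP-negative one, and all 12 enterocyte markers were lower. The part of these cells in the differences given here was not tested.

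Some libraries stand apart on a GC axis. The coding transcripts of the subunit genes had a median length of 648 bases against 2244 bases for the other genes of at least 10 CPM. The median GC of the subunit genes, 52.4%, was close to the 50.7% of those other genes. The level of 575 short, GC-rich genes that are not among the 88 (under 1000 bases, GC of at least 55%) was set against its mean over all 60 libraries. The median log2 deviation ran from -0.51 to -0.27 in the 5 GFP-negative libraries numbered 4 and from 0.03 to 0.39 in the other 15 GFP-negative libraries. It ran from -0.55 to 0.08 in the 16 GFP-high libraries outside the proximal small intestine, from 0.03 to 0.10 in the 4 GFP-high libraries of the proximal small intestine, and from 0.01 to 0.39 in the 20 GFP-intermediate libraries. Longer GC-rich genes ran from -0.464 to -0.218 in the 5 GFP-negative libraries numbered 4 and from -0.516 to 0.065 in the 16 GFP-high ones. Short genes with GC below 45% ran from -0.133 to 0.171 and from -0.055 to 0.308 in the same order. Counts of calls, and the genes most affected, are therefore given also without the 5 libraries and with each library's GC and length trend removed, both chosen after seeing the data.

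**Figure D1:**
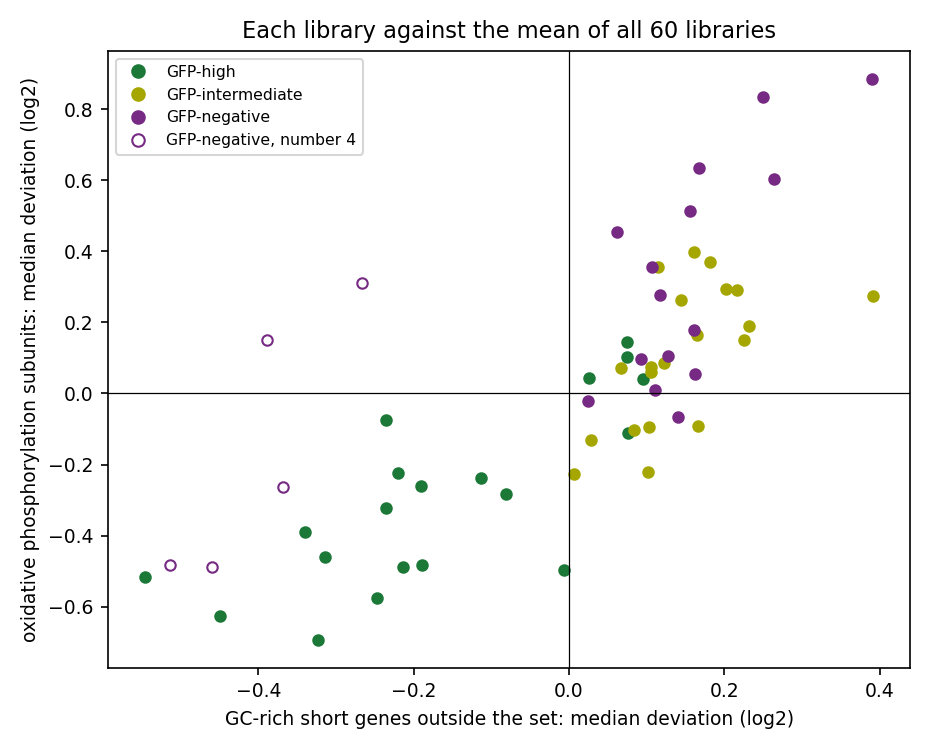
Each point is 1 of the 60 libraries, coloured by GFP fraction, with the median log2 deviation from the mean of all libraries of 575 short, GC-rich genes outside the set (x axis) and of the oxidative phosphorylation subunit genes (y axis). The 5 GFP-negative libraries numbered 4 (open circles) lie between -0.51 and -0.27 on the x axis, left of all other GFP-negative libraries, and most GFP-high libraries lie at the lower left; the points share library and depth.

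The subunit genes together took between 1.11% and 2.46% of a library's counts. In the proximal small intestine their summed level averaged 16296 ± 599 CPM in the GFP-high, 19539 ± 358 CPM in the GFP-intermediate and 24049 ± 3936 CPM in the GFP-negative fraction (SD, n = 4 each). The GFP-high cells were the lowest of the 3 fractions in every part, and GFP-high and GFP-negative libraries did not overlap in the 3 small intestinal parts. In the middle part the means were 13574 ± 911, 17311 ± 1166 and 20684 ± 2404 CPM in GFP-high, GFP-intermediate and GFP-negative cells. In the distal part they were 12252 ± 782, 17361 ± 1311 and 17300 ± 2842 CPM in the same order of fractions. The colon means were 12188 ± 1519, 14221 ± 653 and 14484 ± 2617 CPM in the GFP-high, GFP-intermediate and GFP-negative cells of its proximal part. In its distal part they were 11099 ± 434, 14128 ± 979 and 13942 ± 1769 CPM. In both colon parts the GFP-intermediate and GFP-negative means lay within 1 SD of each other, and the GFP-high libraries of the proximal colon, at 10528 to 14090 CPM, overlapped the GFP-negative ones, at 11536 to 17196 CPM. In the distal colon the ranges met, at 10503 to 11430 CPM in GFP-high and 11355 to 15254 CPM in GFP-negative libraries.

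**Figure D2:**
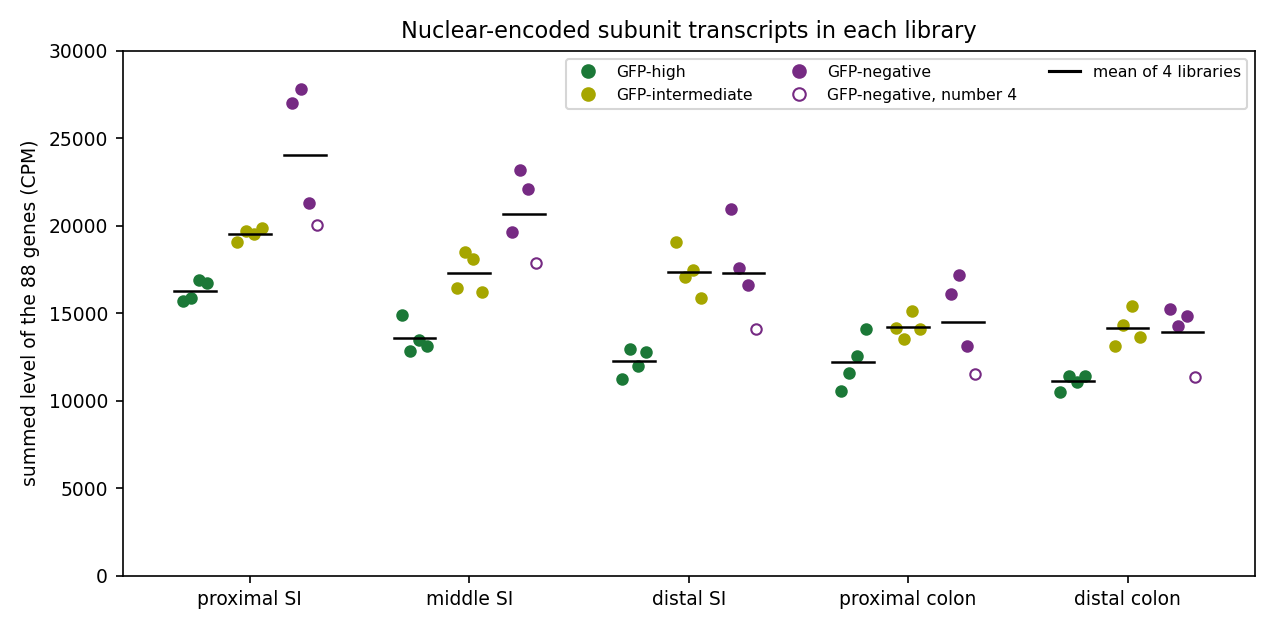
Summed level of the 88 nuclear-encoded subunit genes in CPM by gut part and GFP fraction, with 1 point per library, open for the GFP-negative libraries numbered 4, and a line at the mean of 4 libraries. The GFP-high mean is the lowest of the 3 fractions in each part, and the GFP-negative cells of the proximal small intestine have the highest mean, 24049 CPM.

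Complex V genes carried the largest share, with 7250 of the 16296 CPM in GFP-high and 10692 of the 24049 CPM in GFP-negative cells of the proximal small intestine. Levels of different genes were compared per kilobase of the gene length deposited with the counts. On that scale Atp5a1 and Atp5b, the alpha and beta subunits of the catalytic F1 head, had the highest means in GFP-high cells of that part, at 629 ± 15 and 575 ± 24.9 CPM per kilobase (SD, n = 4). Cox6a1, at 567 ± 58.8, and Cox8a, at 558 ± 41.4 CPM per kilobase, both small subunits of complex IV, stood within the SD of Atp5b. In GFP-high cells of the distal colon the same 4 genes led, with Atp5a1 at 470 ± 19.3, Atp5b at 437 ± 19.1, Cox8a at 413 ± 62.0 and Cox6a1 at 360 ± 49.9 CPM per kilobase. This order holds for the deposited gene length, and with the median length of a gene's coding transcripts it differs.

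The first comparison asks how the Lgr5 reporter-bright cells differ from the reporter-negative cells of the same gut part. In the small intestine most subunit genes were lower in GFP-high cells. A gene is called when its adjusted p is below 0.05 (edgeR quasi-likelihood test over all 60 libraries, Benjamini-Hochberg adjusted over 23360 genes), and differences are log2 ratios with their standard errors. In the proximal part 49 of 81 subunit genes were called lower in GFP-high cells and 1 higher, with a median log2 difference of -0.53, against 24.6% of all genes called lower, 22.5% called higher and a median of 0. In the middle part 62 were lower and 2 higher, with a median of -0.69, against 25.6% and 22.7% of all genes and a median of -0.04. In the distal part 58 were lower and 1 higher, with a median of -0.58, against 26.2% and 25.7% of all genes and a median near 0. Among the 9732 genes of at least 10 CPM, which is the level range of most subunits, 33.8%, 35.4% and 33.3% were called lower in the proximal, middle and distal parts. Without the 5 GFP-negative libraries numbered 4 the lower calls were 58, 59 and 63 in the 3 parts, and with the GC and length trend removed 58, 65 and 66. Without all libraries numbered 2, 40 were called in the middle part, and without all numbered 1, 33 in the distal part. Within number 4 the median difference was -0.27, -0.39 and -0.05 in the proximal, middle and distal parts. Within each of the other numbers it lay between -1.075 and -0.257. Scaling by library totals alone adds 0.27, 0.24 and 0.16 to every log2 difference in these parts, and in the proximal part 29 subunit genes were then lower and 4 higher.

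**Figure D3:**
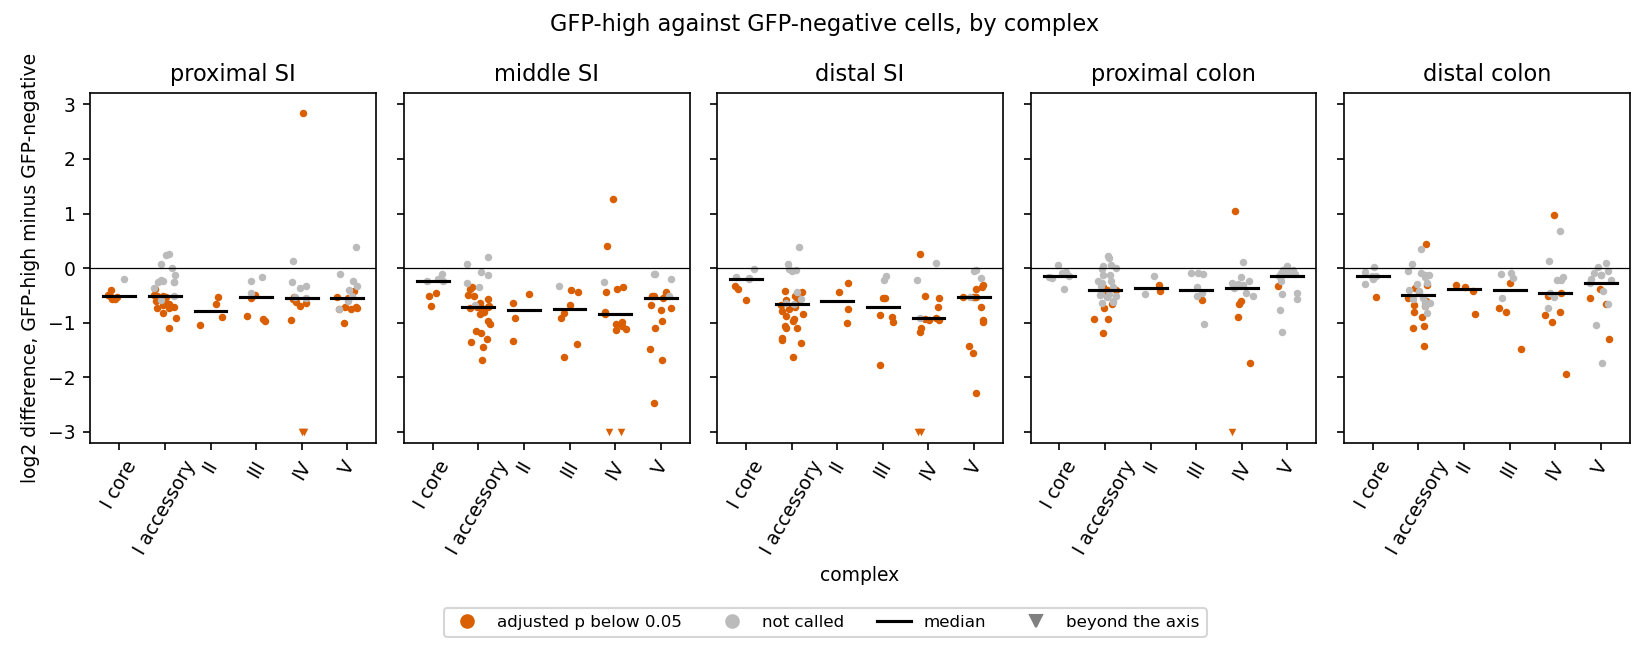
Log2 difference of GFP-high minus GFP-negative cells for the 81 tested subunit genes, by complex (x axis) and gut part (panels), with 1 point per gene, coloured where called, a line at the median and triangles for genes beyond the axis. Most points lie below 0 in the small intestine (medians -0.53, -0.69 and -0.58 from proximal to distal), and nearer to 0 in the proximal and distal colon (medians -0.32 and -0.40).

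In complex II all 4 genes were lower in GFP-high cells in each of the 3 small intestinal parts. Sdhb, the iron-sulphur subunit, had 170, 167, 186 and 181 CPM in the GFP-high libraries of the proximal part (replicates 1 to 4) and 411, 433, 291 and 314 CPM in the GFP-negative ones. The GFP-high values were all below the GFP-negative ones, and Sdhb fell in the proximal, middle and distal parts, with log2 differences of -1.04 ± 0.12, -0.91 ± 0.12 and -0.75 ± 0.12 (adjusted p = 2e-10, 6.29e-09 and 3.59e-07, edgeR quasi-likelihood). Sdha, the flavoprotein subunit that oxidises succinate, changed by -0.53 ± 0.09 in the proximal part and Sdhd, a membrane anchor, by -0.90 ± 0.20 (adjusted p = 2.94e-06 and 0.000182). The GFP-negative library numbered 4 had 267 CPM of Sdhd, within the GFP-high range of 265 to 276 CPM. The other GFP-negative libraries had 496 to 638 CPM. The complex II median was -0.78 in the proximal, -0.78 in the middle and -0.60 in the distal part.

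Of the 7 core complex I genes, which carry the flavin and iron-sulphur redox centres, 6 fell in GFP-high cells of the proximal part. In the middle and distal parts 3 of 7 fell. Ndufs1 had 190, 197, 186 and 183 CPM in GFP-high libraries of the proximal part and 262, 298, 261 and 270 CPM in GFP-negative ones, with no overlap and a log2 difference of -0.53 ± 0.09 (adjusted p = 2.3e-06, edgeR quasi-likelihood). Its difference was -0.45 ± 0.09 in the middle part and -0.18 ± 0.09 in the distal part, where it was not called (adjusted p = 3.09e-05 and 0.0806). Of the 30 tested accessory genes, which surround the core and are needed for assembly, 17, 23 and 21 fell in the proximal, middle and distal parts. Ndufs5, an accessory subunit of the intermembrane space side, had 38.5, 36.9, 42.0 and 42.8 CPM in GFP-high libraries of the proximal part and 96.8, 79.6, 70.6 and 97.7 CPM in GFP-negative ones. The GFP-high values did not overlap the GFP-negative ones, and the log2 difference was -1.11 ± 0.12 (adjusted p = 1.11e-10, edgeR quasi-likelihood). Of its 50-base stretches 31.1% occur in another gene's transcript, so the counts of Ndufs5 are uncertain where reads could be split. Ndufa1, a membrane-arm subunit, differed by -1.69 ± 0.35 in the middle and -1.63 ± 0.35 in the distal part, where it fell, and by -0.58 ± 0.35 in the proximal part, where it was not called (adjusted p = 7.5e-05, 0.000112 and 0.172). Without the 5 libraries the middle and distal differences of Ndufa1 were -1.91 and -1.89, and with the GC and length trend removed -1.95 and -1.91.

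In complex III, 5 of 8 genes fell in GFP-high cells of the proximal part, 7 of the middle and 6 of the distal part. Uqcrc1, a core protein of the complex, had 513, 516, 545 and 528 CPM in GFP-high libraries of the proximal part and 1066, 1068, 844 and 908 CPM in GFP-negative ones. There was no overlap, and it fell by 0.89, 0.67 and 0.55 on the log2 scale in the proximal, middle and distal parts (SE 0.10 each; adjusted p = 1.87e-10, 1.56e-07 and 6.92e-06, edgeR quasi-likelihood). Uqcrfs1, the Rieske iron-sulphur protein, had 141, 114, 121 and 137 CPM in GFP-high libraries of the middle part and 337, 394, 394 and 221 CPM in GFP-negative ones. Its GFP-high values lay below all GFP-negative ones, the lowest of which is number 4, with a log2 difference of -1.39 ± 0.20 (adjusted p = 5.73e-08). Uqcr11, a small subunit, had 14.5, 25.1, 26.8 and 45.5 CPM in GFP-high libraries of the distal part and 143, 121, 91.0 and 28.5 CPM in GFP-negative ones. The GFP-negative library numbered 4 lay within the range of the GFP-high ones, and the log2 difference of -1.78 ± 0.52 was -2.11 without the 5 libraries and -1.46 with the GC and length trend removed (adjusted p = 0.00319, 5.67e-07 and 0.00155).

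In complex IV, 8 of 15 tested genes fell and 1 rose in GFP-high cells of the proximal part, 12 fell and 2 rose in the middle part, and 11 fell and 1 rose in the distal part. Cox4i1, the most common form of subunit 4, had 424, 448, 449 and 443 CPM in GFP-high libraries of the proximal part and 811, 720, 490 and 592 CPM in GFP-negative ones. There was no overlap, and the log2 difference was -0.57 ± 0.13 (adjusted p = 0.000368, edgeR quasi-likelihood). In the middle and distal parts Cox4i1 fell by 0.39 and 0.55 on the log2 scale, but with the GC and length trend removed the differences were -0.21 and -0.25 and were not called (adjusted p = 0.2 and 0.11). Cox7a2l, a relative of the subunit 7a genes that takes part in joining complexes III and IV, went the other way. In the middle part it had 240, 201, 209 and 181 CPM in GFP-high libraries and 146, 153, 168 and 160 CPM in GFP-negative ones. All GFP-high values lay above the GFP-negative ones, with a log2 difference of 0.41 ± 0.11 (adjusted p = 0.00175). The distal difference of Cox7a2l, 0.26 ± 0.11 (adjusted p = 0.0463), was 0.08 and not called with the GC and length trend removed (adjusted p = 0.536), and the proximal one, 0.12 ± 0.11, was not called (adjusted p = 0.393). Of the 50-base stretches of Cox7a2l, 17.7% are shared with another gene's transcript.

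In complex V, 9 of 17 tested genes fell in GFP-high cells of the proximal part and 13 in each of the middle and distal parts, and none rose in these 3 comparisons. Atp5b had 2341, 2352, 2517 and 2539 CPM in GFP-high libraries of the proximal part and 3522, 4087, 3272 and 3345 CPM in GFP-negative ones. There was no overlap, and the log2 differences were -0.55 ± 0.09, -0.52 ± 0.09 and -0.31 ± 0.09 from the proximal to the distal part (adjusted p = 2.56e-06, 6.43e-06 and 0.00416, edgeR quasi-likelihood). Atp5c1, the gamma subunit that forms the rotating shaft, had 341, 369, 356 and 354 CPM in GFP-high libraries of the proximal part and 643, 634, 526 and 589 CPM in GFP-negative ones. It did not overlap either, and the difference was -0.75 ± 0.08 in the proximal, -0.48 ± 0.08 in the middle and -0.35 ± 0.08 in the distal part, where it was also called (adjusted p = 8.57e-11, 2.44e-06 and 0.000361). The 3 genes of the membrane ring subunit c are given side by side, and differences between them were not tested. Atp5g1 differed by -0.67 ± 0.18, Atp5g3 by -1.69 ± 0.35 and Atp5g2 by -0.20 ± 0.33 in the middle part, where the first 2 fell and Atp5g2 was not called (adjusted p = 0.00186, 6.13e-05 and 0.661). Atp5g3 differed by -1.93 without the 5 libraries and by -1.81 with the GC and length trend removed. Atp5g2 had 80.7, 87.3, 116 and 142 CPM in GFP-high libraries of the middle part and 135, 159, 145 and 51.8 CPM in GFP-negative ones. Its GFP-negative library numbered 4 thus lay below all GFP-high ones. Atp5k, a short subunit e gene, had 3.84, 4.16, 4.75 and 18.7 CPM in GFP-high libraries of the middle part and 46.8, 79.0, 45.4 and 4.82 CPM in GFP-negative ones. The libraries numbered 4 stood apart in both fractions, in opposite directions, and the log2 difference was -2.48 ± 0.73, against -2.83 without the 5 GFP-negative libraries and -2.47 with the GC and length trend removed (adjusted p = 0.00386, 2.49e-05 and 0.00175).

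In the colon fewer subunit genes were called. In the proximal colon 18 of 81 fell and 1 rose in GFP-high cells, with a median log2 difference of -0.32, against 14.0% of all genes called lower and 11.3% higher. In the distal colon 30 fell and 2 rose, with a median of -0.40, against 13.9% and 11.2% of all genes. Among genes of at least 10 CPM, 14.7% were lower in the proximal and 18.2% in the distal colon. These counts rest on few libraries. In the proximal colon 43 were called without the 5 GFP-negative libraries numbered 4 and 38 with the GC and length trend removed, but 2, 4 and 5 without all libraries numbered 1, 2 and 3. Leaving out 1 library of that part gave 7, 10 and 9 without GFP-high libraries 1, 2 and 3, and 11, 7, 11 and 36 without GFP-negative libraries 1, 2, 3 and 4. A fit of only the 2 groups called 2. In the distal colon 50 were called without the 5 libraries, and 8, 11 and 4 without all libraries numbered 1, 2 and 3. It was 17 and 20 without GFP-high libraries 1 and 3 of that part, and 15 and 17 without GFP-negative libraries 1 and 3. Within number 4 the median difference was 0.38 in the proximal and 0.05 in the distal colon, and it lay between -0.72 and -0.16 within each of the other numbers.

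All 4 complex II genes fell in GFP-high cells of the distal colon. Sdhb had 111, 126, 108 and 106 CPM in GFP-high and 157, 147, 148 and 152 CPM in GFP-negative libraries. There was no overlap, and the log2 difference was -0.42 ± 0.12 in the distal and -0.42 ± 0.12 in the proximal colon (adjusted p = 0.00554 and 0.00592, edgeR quasi-likelihood). Uqcrfs1 fell by 0.80 in the distal and 0.58 in the proximal colon (SE 0.20 each; adjusted p = 0.00179 and 0.0242). In the proximal colon its GFP-negative library numbered 4, at 155 CPM, lay within the GFP-high range of 119 to 219 CPM. In complex I, Ndufv3, an accessory subunit of the NADH-oxidising module, fell by 0.68 in the distal and 0.66 in the proximal colon on the log2 scale (adjusted p = 0.00105 and 0.00144). Its GFP-negative libraries numbered 4, at 40.3 CPM in the distal and 45.5 CPM in the proximal colon, lay within the GFP-high ranges. Those ranges were 34.9 to 40.6 CPM and 34.1 to 50.3 CPM, in the same order. None of the 7 core complex I genes was called in the proximal colon, and Ndufv1 alone in the distal colon. In complex V, 1 of 17 genes was lower in the proximal and 4 in the distal colon. Atp5b and Atp5c1 differed by -0.06 ± 0.09 and -0.03 ± 0.08 in the proximal colon and were not called (adjusted p = 0.682 and 0.855). Ndufa4, named as a complex I subunit and since assigned to complex IV, had 100, 110, 118 and 92.6 CPM in GFP-high libraries of the distal colon and 72.5, 71.2, 91.8 and 73.3 CPM in GFP-negative ones. The groups did not overlap and it rose by 0.45 ± 0.14 (adjusted p = 0.0131), but with the GC and length trend removed the difference was 0.22 and not called (adjusted p = 0.193).

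The difference between organs was itself tested, as the GFP-high minus GFP-negative difference in the colon minus that in the small intestine. It was positive for 68 of 81 subunit genes, with a median of 0.22, against -0.07 over all genes. It was called for 23, all positive, against 14.5% of all genes called positive and 17.7% called negative, and 25.5% and 26.3% of the genes of at least 10 CPM. The 23 of 81, or 28.4%, are thus close to the share among genes of such levels. The 23 comprised 9 genes of complex I, 2 of complex II, 3 of complex III, 1 of complex IV and 8 of complex V. Among them were Ndufs5 (0.60 ± 0.11), Ndufa4 (0.63 ± 0.13), Sdhb (0.48 ± 0.11), Uqcrc1 (0.51 ± 0.09), Cox7a1 (2.06 ± 0.39), Atp5b (0.36 ± 0.09), Atp5c1 (0.47 ± 0.08) and Atp5md (0.76 ± 0.17). Their adjusted p-values by edgeR's quasi-likelihood test were 2.07e-05, 6.78e-05, 0.000324, 1.11e-05, 3.15e-05, 0.000694, 1.52e-06 and 0.000369, in the same order. With library totals alone, which lower every such value by 0.16, 9 were positive and 1 negative, and without all libraries numbered 2 the count was 12. With the GC and length trend removed 31 were called, all positive.

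The difference between GFP-high and GFP-negative cells was then taken as 2 steps. Over the small intestine, 62 of 81 subunit genes were lower in GFP-high than in GFP-intermediate cells and none was higher, with a median log2 difference of -0.43, against 13.4% of all genes called lower, and 26.6% of the genes of at least 10 CPM. Between GFP-intermediate and GFP-negative cells 37 were lower and 4 higher, with a median of -0.18, against 30.5% and 29.3% of all genes called lower and higher, and 36.5% and 41.9% of the genes of at least 10 CPM. Within numbers 1 to 4 the median of that step was -0.41, -0.27, -0.03 and 0.16. In the colon 39 were lower in GFP-high than in GFP-intermediate cells, with a median of -0.36, against 7.20% of all genes and 14% of the genes of at least 10 CPM. Between GFP-intermediate and GFP-negative colon cells 3 were lower and 1 higher, with a median of -0.02, against 12.2% and 10.8% of all genes. Without all libraries numbered 1, 2 or 3 that count was 2, 1 and 1. It was 2 without any one of GFP-intermediate libraries 1, 3 and 4 of the distal and 2, 3 and 4 of the proximal colon, or of GFP-negative libraries 4 of the distal and 1 of the proximal colon. These steps share the GFP-intermediate libraries, so their values are given side by side. They pool gut parts, and same-numbered libraries of different parts were taken as independent.

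**Figure D4:**
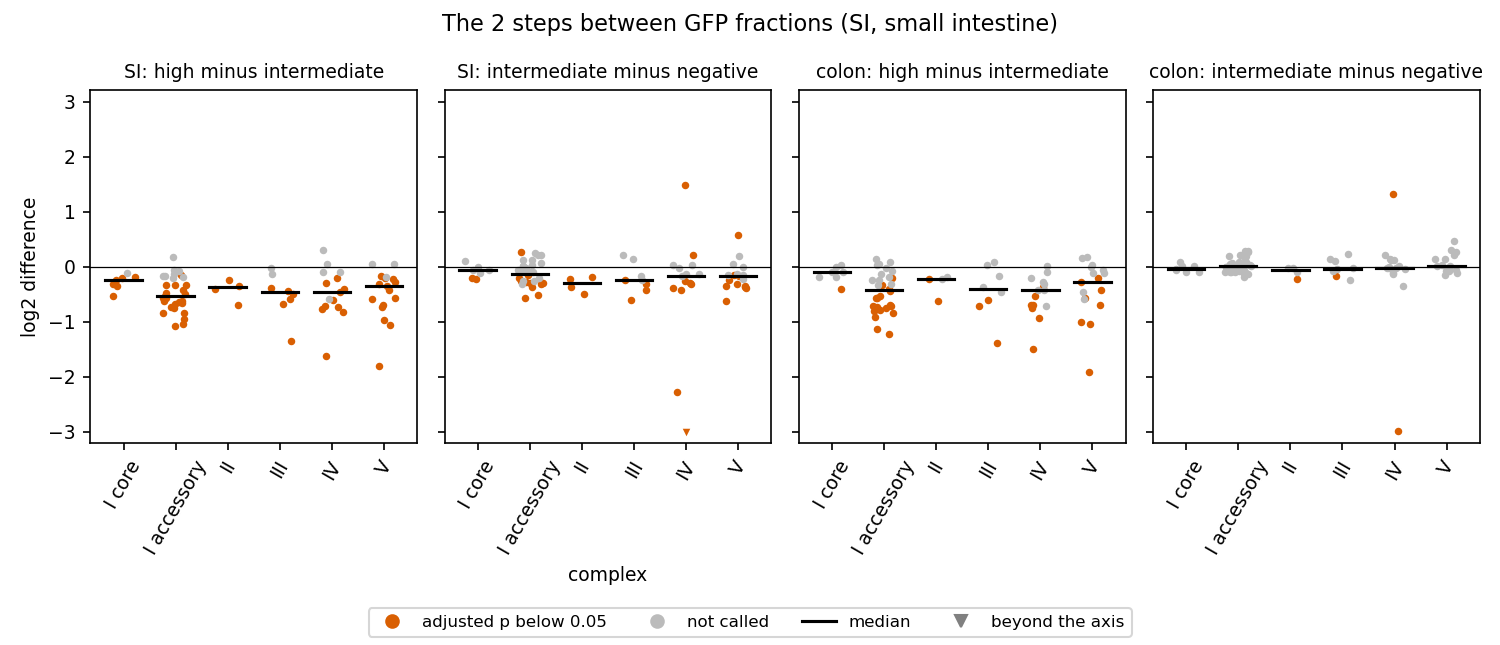
Log2 differences of the 81 tested subunit genes by complex, for GFP-high minus GFP-intermediate and for GFP-intermediate minus GFP-negative cells, over the small intestine and over the colon, with 1 point per gene, coloured where called, and a line at the median. The medians over all 81 genes are -0.43 and -0.36 for the GFP-high step in the small intestine and colon, and -0.18 and -0.02 for the GFP-intermediate step.

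Sdhb is a member with both steps in the small intestine, with -0.40 ± 0.07 for GFP-high against GFP-intermediate cells and -0.50 ± 0.07 for GFP-intermediate against GFP-negative cells (adjusted p = 1.56e-05 and 7.53e-09, edgeR quasi-likelihood). Sdhd showed -0.70 ± 0.12 and -0.38 ± 0.11 (adjusted p = 9.37e-06 and 0.0039), and Uqcrfs1 -0.68 ± 0.11 and -0.43 ± 0.11 (adjusted p = 1.17e-05 and 0.000804), in the same order of steps. Atp5md, a small membrane subunit of the ATP synthase, showed -0.62 ± 0.11 in the GFP-intermediate against GFP-negative step and -0.19 ± 0.11, not called, in the other (adjusted p = 1.84e-06 and 0.206). Atp5g2 rose in GFP-intermediate against GFP-negative cells, by 0.58 ± 0.19, and fell in GFP-high against GFP-intermediate cells, by 0.58 ± 0.19 (adjusted p = 0.00817 and 0.0221). Its GFP-negative libraries numbered 4 had 63.2, 51.8 and 60.4 CPM from the proximal to the distal part. The other GFP-negative libraries of the small intestine had 135 to 199 CPM and the GFP-intermediate ones 169 to 238 CPM. With the GC and length trend removed, the GFP-high step called 52 lower in the small intestine and 35 lower and 1 higher in the colon, and the GFP-intermediate step 56 lower and 2 higher in the small intestine. The genes Uqcrc1 and Cox4i1 lost their call in the GFP-high step of the small intestine under that correction, with -0.09 for Uqcrc1 and 0.11 for Cox4i1 in place of -0.39 and -0.21 (adjusted p = 0.382 and 0.354). With library totals alone the GFP-intermediate step of the small intestine had 13 higher and 10 lower and a median of 0.02, so its direction depends on the scaling. In the colon the GFP-high step had no call without all libraries numbered 1 or all numbered 3, 6 without those numbered 2, and 20 without GFP-high library 1 of the proximal colon.

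The colon and the small intestine were compared within each fraction, with same-numbered libraries of different parts taken as independent. Many subunit genes were called lower in the colon in GFP-intermediate and GFP-negative cells. In GFP-high cells the share called lower was not far above that of genes of at least 10 CPM. In GFP-high cells 33 of 81 were lower in the colon, with a median log2 difference of -0.24, against 21.3% of all genes and 33.7% of the genes of at least 10 CPM. In GFP-intermediate cells 42 were lower, with a median of -0.33, against 22.0% and 37.1%. In GFP-negative cells 59 were lower, with a median of -0.48, against 22.4% and 33.2%, and no subunit gene was called higher in the colon in any of the 3 fractions. Library totals alone add 0.22 to the GFP-negative difference of every gene, and 41 were then lower and 2 higher. Without all libraries numbered 1 the GFP-high count was 15, and without those numbered 2 it was 20, with 27 in GFP-intermediate cells.

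Sdha ran from 401 to 505 CPM in the GFP-high libraries of the colon and from 576 to 801 CPM in those of the small intestine. The 2 organs did not overlap, and Sdha was lower in the colon by 0.61 ± 0.06, 0.63 ± 0.06 and 0.72 ± 0.06 on the log2 scale in GFP-high, GFP-intermediate and GFP-negative cells (adjusted p = 1.06e-12, 4.27e-13 and 2.86e-15, edgeR quasi-likelihood). All 7 core complex I genes were lower in GFP-intermediate and GFP-negative colon cells, and 6 of 7 in GFP-high colon cells. Uqcrc1 was lower by 0.35 ± 0.07, 0.58 ± 0.07 and 0.86 ± 0.07 in GFP-high, GFP-intermediate and GFP-negative colon cells (adjusted p = 1.1e-05, 1.1e-10 and 1.78e-16). In complex IV only 2, 3 and 8 of 15 genes were lower in the colon in these fractions. Cox4i1 differed by -0.07 ± 0.09 in both GFP-high and GFP-intermediate cells, not called, and by -0.31 ± 0.09 in GFP-negative cells (adjusted p = 0.565, 0.588 and 0.0021).

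Along the small intestine, many subunit genes were lower in the distal than in the proximal part in GFP-high and GFP-negative cells. In GFP-high cells 47 of 81 were lower in the distal part, with a median log2 difference of -0.56. Over all genes 5.42% were lower, and 8.52% of the genes of at least 10 CPM. For 64 of the 81 the 4 distal libraries lay below the 4 proximal ones, against 13.2% of all genes. In GFP-intermediate cells 3 were lower, with a median of -0.22. The share of all genes, 3.56%, is near that of the subunit genes, and 5.1% of the genes of at least 10 CPM were lower. None was called without GFP-intermediate library 4 of the distal part. In GFP-negative cells 31 were lower and 1 higher, with a median of -0.45. Over all genes 8.90% were lower and 6.67% higher, and 14.4% and 8.81% of the genes of at least 10 CPM. Along the colon, distal against proximal, no subunit gene was called lower in GFP-high cells and 1 higher, none in either direction in GFP-intermediate cells, and 1 lower in GFP-negative cells. Over all genes 3.74% were called higher in GFP-high, 7.34% in either direction in GFP-intermediate and 7.17% lower in GFP-negative cells of the colon. The subunit genes at an unadjusted p under 0.05 numbered 2 in GFP-intermediate colon cells, where a fit of only the 2 groups called 2, and the DESeq2 Wald test called 0 (edgeR quasi-likelihood otherwise).

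The GFP-high libraries of the distal part are low on the GC axis and those of the proximal part are not, and with the GC and length trend removed 40 were lower. The count is also carried by few libraries, with 7 without all libraries numbered 3, 13 without those numbered 1 or those numbered 2, 15 and 31 without GFP-high libraries 1 and 3 of the distal part, and 27 and 29 without GFP-high libraries 3 and 4 of the proximal part. Uqcr11 had 14.5, 25.1, 26.8 and 45.5 CPM in GFP-high libraries of the distal part and 107, 96.6, 118 and 113 CPM in those of the proximal part. There was no overlap, with a log2 difference of -1.96 ± 0.52, and -1.62 with the GC and length trend removed (adjusted p = 0.00804 and 0.00314, edgeR quasi-likelihood). Ndufa1 fell by 1.53 and Sdhd by 0.87 on the log2 scale in the distal part (adjusted p = 0.00189 and 0.0018), with 1.53 and 0.87 also under that correction. For Uqcrc1 the correction ended the call, with -0.12 in place of -0.44 (adjusted p = 0.567 and 0.00183).

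In GFP-negative cells of the distal part, Ndufs1 had 168, 175, 185 and 179 CPM, against 262, 298, 261 and 270 CPM in the proximal part. There was no overlap, and it fell by 0.63 ± 0.09, as did Sdha by 0.65 ± 0.09, Uqcrc1 by 0.77 ± 0.10 and Atp5c1 by 0.53 ± 0.08 (adjusted p = 4.3e-07, 2.7e-07, 4.42e-08 and 3.16e-06, edgeR quasi-likelihood). All 7 core complex I genes and all 4 complex II genes were lower. A fit of only the 2 GFP-negative groups called 2 of the 81, 20 were lower and 1 higher without the 5 libraries numbered 4, and 18 were called without all libraries numbered 2.

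Complex IV holds pairs of paralogues, of which one is used in most tissues and the other is known from heart and skeletal muscle (Cox7a1, Cox6a2) or testis (Cox6b2). In the proximal small intestine Cox7a1 and Cox6b2 showed the largest GFP-high against GFP-negative differences of the tested subunit genes other than Cox6a2, at low levels. Cox6a2 is not ranked, as it passed the filter on low counts through other groups. Cox7a1 had 3.71, 5.01, 6.34 and 5.46 CPM in GFP-high libraries of the proximal small intestine, 9.55, 15.5, 10.6 and 14.0 CPM in GFP-intermediate ones and 64.5, 87.3, 36.4 and 26.7 CPM in GFP-negative ones. The 3 fractions did not overlap, in order of GFP, and the GFP-high against GFP-negative log2 difference was -3.39 ± 0.46 (adjusted p = 1.92e-08, edgeR quasi-likelihood). It was -4.10 ± 0.48 in the middle and -4.21 ± 0.49 in the distal small intestine (adjusted p = 3.54e-10 and 2.28e-10). In the distal colon Cox7a1 had 1.58, 6.72, 2.51 and 2.71 CPM in GFP-high libraries and 15.6, 15, 13.2 and 8.19 CPM in GFP-negative ones. These did not overlap, and the difference was -1.94 ± 0.44 in the distal and -1.74 ± 0.43 in the proximal colon (adjusted p = 0.00067 and 0.00191).

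Cox7a2, the widely used form, had 87.2, 86.1, 105 and 99.2 CPM in GFP-high libraries of the proximal small intestine, against 183, 169, 121 and 120 CPM for the GFP-negative ones. It fell there by 0.65 ± 0.18, in the middle part by 1.02 ± 0.18 and in the distal part by 0.93 ± 0.18 on the log2 scale (adjusted p = 0.0024, 5.15e-06 and 2.12e-05, edgeR quasi-likelihood). Per kilobase of the deposited gene length, Cox7a1 stood at 9.59 ± 2.05 CPM in GFP-high and 100 ± 51.5 CPM in GFP-negative cells of the proximal small intestine, and Cox7a2 at 100 ± 9.82 and 157 ± 34.4 CPM (SD, n = 4 each). On that scale Cox7a2 was above Cox7a1 in every library of both fractions.

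**Figure D5:**
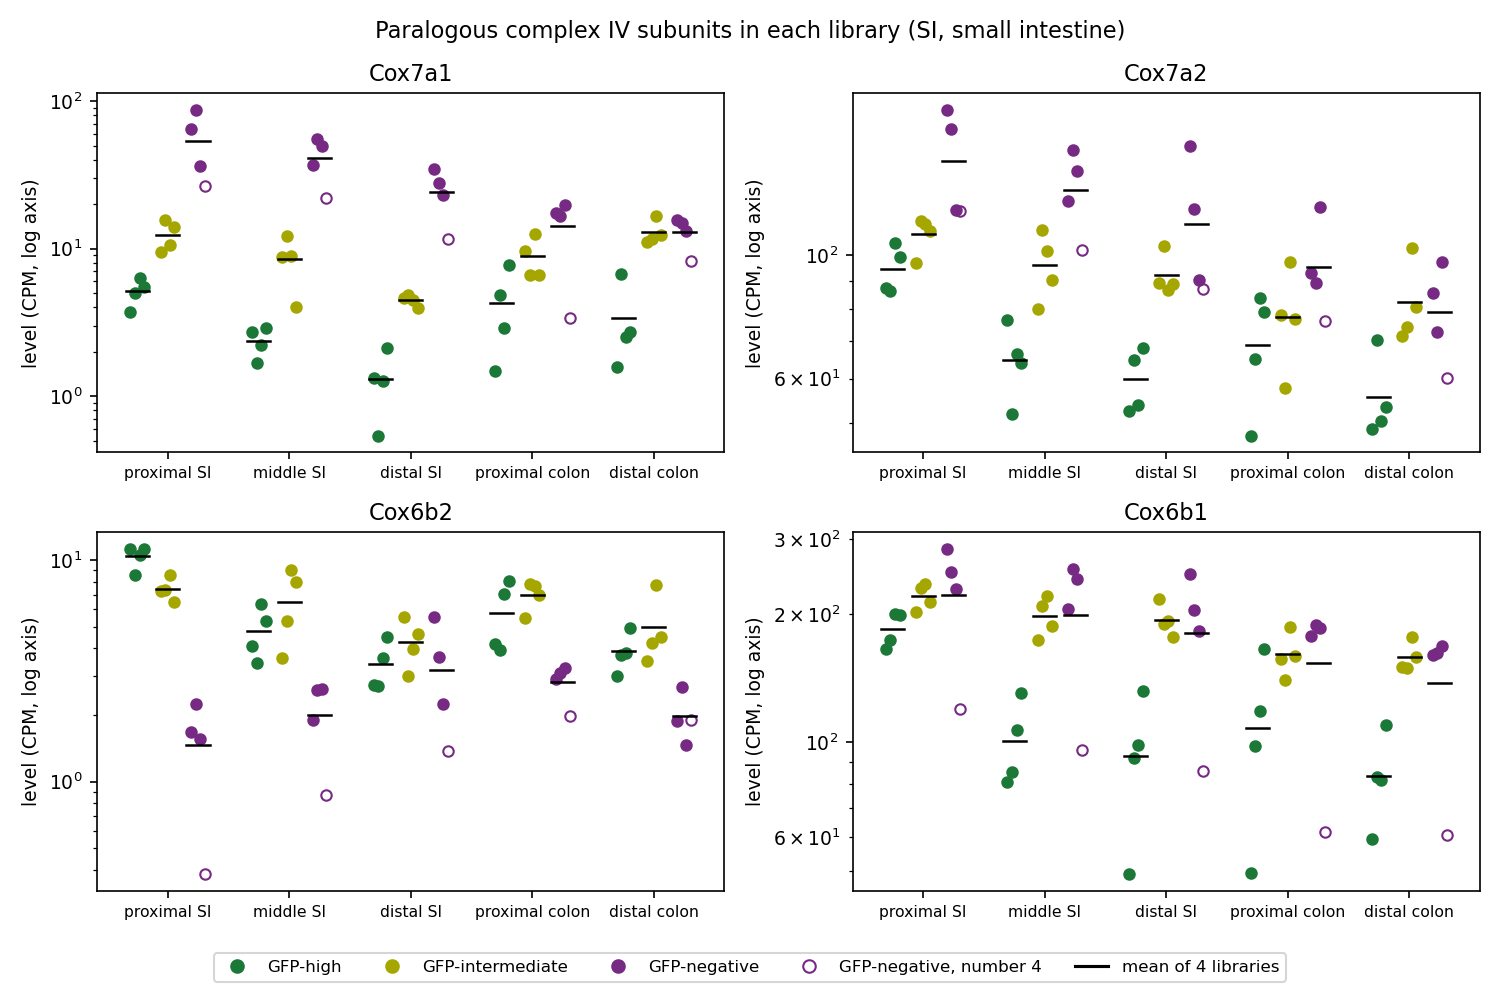
Levels in CPM (log axis) of Cox7a1, Cox7a2, Cox6b2 and Cox6b1 by gut part and GFP fraction, with 1 point per library, open for the GFP-negative libraries numbered 4, and a line at the mean of 4 libraries. The Cox7a1 mean is lowest in GFP-high cells of every part, and Cox6b2 has its highest mean in the GFP-high libraries of the proximal small intestine.

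Cox6b2 went the other way in the proximal small intestine, with 11.3, 8.60, 10.6 and 11.2 CPM in GFP-high, 7.24, 7.36, 8.55 and 6.46 CPM in GFP-intermediate and 1.68, 2.24, 1.56 and 0.381 CPM in GFP-negative libraries. GFP-high and GFP-negative libraries did not overlap, and Cox6b2 rose by 2.84 ± 0.38 there and by 1.26 ± 0.36 in the middle part (adjusted p = 1.1e-08 and 0.00276, edgeR quasi-likelihood). In the distal part it had 2.75, 2.71, 3.62 and 4.52 CPM in GFP-high and 5.55, 3.64, 2.23 and 1.37 CPM in GFP-negative libraries. These overlapped, with a difference of 0.09 ± 0.35 (adjusted p = 0.87). The difference between the distal and the proximal effect, -2.75 ± 0.51, was called (adjusted p = 0.000376), while over the 81 subunit genes that test called 1 negative and 3 positive, against 0.993% and 2.54% of all genes. Cox6b2 also rose by 1.04 ± 0.35 in the proximal and 0.97 ± 0.36 in the distal colon (adjusted p = 0.0244 and 0.0379). Cox6b1, the common form, had 166, 174, 200 and 199 CPM in GFP-high libraries of the proximal small intestine, against 285, 252, 229 and 120 CPM for the GFP-negative ones, with overlap at number 4 and a difference of -0.26 ± 0.31 (adjusted p = 0.527).

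Cox6a2 had few reads, with 5, 8, 6 and 0 counts in GFP-high libraries of the proximal small intestine and 202, 38, 67 and 102 in GFP-negative ones. No GFP-high library of the small intestine had more than 9 counts, so Cox6a2 passed the filter on low counts through other groups and had to differ from them. Its calls are among the counts above, and its values are given as a description, with no test. In the proximal colon it had no count in the 4 GFP-high libraries and 33, 24, 78 and 2 counts in the GFP-negative ones. A count of 0 allows up to 3 counts, or 0.0243 to 0.0344 CPM in those 4 libraries, for counting error only. In the distal colon the counts were 26, 12, 0 and 0 in GFP-high and 6, 0, 19 and 0 in GFP-negative libraries. The single subunit gene called higher in distal than in proximal GFP-high colon cells is Cox6a2, and so is the single one for which the distal colon differed from the proximal in the GFP-high against GFP-negative effect, against 0.360% of all genes called positive; both rest on those counts of 0.

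Other genes of the pathway did not all follow the nuclear subunits. Of the 13 subunits encoded by the mitochondrial genome, 5 were lower in GFP-high cells of the proximal small intestine when set against GFP-negative cells, with a median log2 difference of -0.40, and none was called in the other 4 parts; over all genes 24.6% were lower in the proximal part. Against GFP-intermediate cells of the small intestine 8 of the 13 were higher in GFP-high cells and none lower, with a median of 0.44, against 10.4% of all genes called higher, and 62 of the 81 nuclear genes fell in that step. mt-Co1, the catalytic subunit of complex IV, rose by 0.64 ± 0.16 and mt-Nd2, a membrane subunit of complex I, by 0.59 ± 0.13 in that step (adjusted p = 0.00175 and 0.000565, edgeR quasi-likelihood). In GFP-intermediate against GFP-negative cells 10 of the 13 were lower, against 30.5% of all genes, with mt-Co1 at -0.88 ± 0.16 (adjusted p = 3.45e-06). The 13 mitochondrial transcripts take part in polyA libraries only through their own tails, so their levels are not set against those of nuclear genes. Only differences between fractions are given side by side, and the part of the tails in them was not tested.

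Of 46 assembly factors, 5, 12 and 14 were higher and 11, 15 and 9 lower in the GFP-high against GFP-negative comparison of the small intestine, from its proximal to its distal part. Over all genes 22.5%, 22.7% and 25.7% were higher and 24.6%, 25.6% and 26.2% lower in these parts, which are the shares to read these and the lists that follow against. Bcs1l, which inserts the Rieske protein into complex III, rose by 0.73 ± 0.11 in the proximal part, where its client Uqcrfs1 fell by 0.97 ± 0.20 (adjusted p = 4.1e-07 and 4.36e-05, edgeR quasi-likelihood). Of 14 regulators of mitochondrial biogenesis, 8, 8 and 9 were higher and 2, 3 and 2 lower in the 3 parts. Myc rose by 2.61 ± 0.19 and Pprc1, a coactivator of the PGC-1 family, by 1.56 ± 0.17 in the proximal part, and Ppargc1a, which encodes PGC-1 alpha, fell by 1.96 ± 0.26 (adjusted p = 2.2e-16, 5.33e-11 and 1.01e-08). Of 8 genes for electron carriers and ATP exchange, 7, 5 and 5 were lower in the 3 parts, and 1 was higher in the proximal part. Cycs, cytochrome c, fell by 1.31 ± 0.16 and Slc25a5, an ADP/ATP carrier, by 0.88 ± 0.12 in that part (adjusted p = 1.26e-09 and 5.2e-08).

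Promoter sequences were available for 69 of the subunit genes, as 250 bases before to 50 bases after the start of the gene (RefSeq, GRCm38.p6). A match to the site of nuclear respiratory factor 1 (NRF1), spelled GCGCA, any 1 base and GCGC, was found on either strand in 17 of 69, or 24.6%, against 7.39% of all 16797 protein-coding promoters of the same length. CCGGAAG, a core of ETS family factors that include GABP, was found in 17 of 69, or 24.6%, against 13.2%. A YY1 site, spelled AAGATGGCG followed by GC, was found in 4, or 5.8%, against 1.11%, and TCAAGGTCA, an ERR alpha site, in 2, or 2.9%, against 0.387%. CCAAT was found in 43.5% against 42.3%, and TATAAA in 11.6% against 14.6%. None of these motifs contains another, and a match is a description of letters, not of binding. In the GFP-high against GFP-negative comparison of the proximal small intestine, the 33 tested genes with a match to NRF1, ETS or YY1 letters had a median log2 difference of -0.53 and the 34 without one -0.53. The medians with and without a match were -0.73 and -0.70 in the middle and -0.72 and -0.58 in the distal small intestine. They were -0.32 and -0.39 in the proximal and -0.425 and -0.514 in the distal colon. Whether matches and differences go together was not tested. The promoters of 5 genes are shown to set 3 widely used subunits that fell beside the 2 tissue-restricted paralogues. Only 33 of the 69 genes hold any NRF1, ETS or YY1 match. The 3 shown thus do not stand for the widely used subunits as a group. Of the 2 paralogues, Cox7a1 fell and Cox6b2 rose in the proximal small intestine, and Cox6a2 is not shown. Capitals mark the NRF1, ETS and YY1 matches, and each sequence is 5′ to 3′ on the strand of its gene. They lie at chr5:115348909-115349208 (Cox6a1, minus strand), chr9:50603800-50604099 (Sdhd, minus), chr9:108936398-108936697 (Uqcrc1, plus), chr7:30183921-30184220 (Cox7a1, plus) and chr7:4753045-4753344 (Cox6b2, minus).
Cox6a1: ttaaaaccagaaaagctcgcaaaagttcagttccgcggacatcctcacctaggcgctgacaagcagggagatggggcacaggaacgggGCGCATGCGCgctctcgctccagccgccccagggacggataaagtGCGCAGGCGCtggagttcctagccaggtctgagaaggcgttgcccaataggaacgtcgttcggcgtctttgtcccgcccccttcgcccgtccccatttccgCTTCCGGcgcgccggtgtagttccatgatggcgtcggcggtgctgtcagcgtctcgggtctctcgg
Sdhd: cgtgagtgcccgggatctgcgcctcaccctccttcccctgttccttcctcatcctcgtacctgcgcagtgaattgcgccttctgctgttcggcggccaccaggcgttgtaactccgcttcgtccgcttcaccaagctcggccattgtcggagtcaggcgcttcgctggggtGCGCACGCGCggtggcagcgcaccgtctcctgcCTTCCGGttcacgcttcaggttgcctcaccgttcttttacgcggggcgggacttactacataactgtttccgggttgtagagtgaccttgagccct
Uqcrc1: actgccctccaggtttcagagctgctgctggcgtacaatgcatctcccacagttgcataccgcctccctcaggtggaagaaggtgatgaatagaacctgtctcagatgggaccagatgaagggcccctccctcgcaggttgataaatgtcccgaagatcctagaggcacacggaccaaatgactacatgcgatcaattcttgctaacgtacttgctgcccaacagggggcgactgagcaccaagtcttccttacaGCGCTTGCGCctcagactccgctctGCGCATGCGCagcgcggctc
Cox7a1: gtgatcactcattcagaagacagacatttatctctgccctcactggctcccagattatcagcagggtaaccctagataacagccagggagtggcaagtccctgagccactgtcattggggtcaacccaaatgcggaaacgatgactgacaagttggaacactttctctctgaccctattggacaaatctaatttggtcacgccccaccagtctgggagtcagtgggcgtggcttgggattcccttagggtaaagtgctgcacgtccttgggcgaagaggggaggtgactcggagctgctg
Cox6b2: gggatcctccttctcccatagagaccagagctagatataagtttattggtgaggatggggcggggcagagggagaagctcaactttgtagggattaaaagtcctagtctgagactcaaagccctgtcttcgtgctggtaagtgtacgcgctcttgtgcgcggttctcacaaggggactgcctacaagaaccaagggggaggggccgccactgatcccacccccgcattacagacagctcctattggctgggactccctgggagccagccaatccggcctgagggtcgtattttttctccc
The Cox6a1 window holds 2 NRF1 matches and 1 ETS match, Sdhd 1 of each and Uqcrc1 2 NRF1 matches. These letters are not in the windows of Cox7a1 and Cox6b2.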

How the data were processed

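PolyA RNA-seq libraries of 60 sorted fractions were used as the gene counts deposited by the authors. The tools listed in the submitters' processing notes are edgeR, STAR, and featureCounts of Subread, for mm10; versions and the strand setting of counting are not given in the sources used here. From the counts, edgeR 4.0.16 (R 4.3.3, limma 3.58.1) was run with TMM scaling, its expression filter (23360 of 55357 genes kept), a model of all 15 groups and the quasi-likelihood test, which left 45 residual degrees of freedom. p-values were Benjamini-Hochberg adjusted over all genes tested, and a gene was called at an adjusted p below 0.05. CPM values use TMM-scaled totals, and CPM per kilobase uses the gene length deposited with the counts. Totals of 55411864 to 113917959 counts set the precision.

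The subunit genes, the other gene lists and the tests were chosen with earlier results of these data known. Genes were named, per comparison, as the call with the smallest p in each complex, the largest differences at 10 CPM or more, calls against the main direction, and the paralogue families; a selection is printed, and some were added for their role after their values were seen. Replicate numbers equal the deposited batch number in 60 of 60 libraries and were read as a pairing. Same-numbered libraries deviated together with a mean correlation of 0.157 over 420 pairs, against -0.049 over 1260 pairs of different numbers. This mean differed by comparison. It ran from -0.208 to 0.194 for GFP-high against GFP-negative cells, and from 0.228 to 0.519 for distal against proximal parts. The fit without the replicate block is reported and the block is an alternative, as are DESeq2 1.42.0, other scalings, other filters and left-out libraries. The fits were tested on simulated data. Values of some single genes are not reported here.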

Additional observations from a re-analysis of the deposited data

Results flagged for a closer look

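A check for single libraries far from the other 3 of their group (Dixon's test at the 95% level) was made on 405 sets of 4 libraries and marked 22, where chance gives about 20.2; the summed level of the subunit genes was marked in none. Values are CPM.

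In GFP-negative libraries numbered 4 of the distal colon, Atp5g3 had 120 against 373 to 393 CPM in the other 3, Cox6a1 244 against 487 to 533, Cox6b1 60.8 against 160 to 168, Sdhd 153 against 285 to 312, and Uqcr11 12.1 against 84.3 to 93.8. In the proximal colon GFP-negative library 4 had 135.0 CPM of Atp5g1 against 204 to 217, and 61.6 CPM of Cox6b1 against 178 to 189. These libraries are among the 5 that are low on the GC axis, and the part of that axis in these values was not tested.

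In GFP-high cells, Atp5k had 18.7 CPM in library 4 of the middle small intestine against 3.84 to 4.75, and Ndufs1 had 160 CPM in library 3 of the distal colon against 139 to 142. Cox6a2 had 0.109 CPM in GFP-high library 4 of the distal small intestine, where the other 3 had 0. In GFP-intermediate cells, Cox6a2 had 0.0204 CPM in library 3 of the proximal colon and 0.0222 CPM in library 4 of the distal small intestine, where the others had 0. Also in GFP-intermediate cells, Atp5c1 had 341 CPM in library 4 of the middle small intestine against 390.4 to 397, and Cox7a2l had 164 CPM in library 1 of the same part against 190.2 to 193. Atp5md had 70.1 CPM in library 3 of the distal colon against 45.6 to 48.5, and 60.4 CPM in library 1 of the proximal small intestine against 77.8 to 80.2. Cox4i1 had 547 CPM in library 1 of the distal small intestine against 434 to 452, and Cox7a2 had 104 CPM in library 2 of that part against 86.6 to 89.0. Ndufa4 had 114 CPM in GFP-intermediate library 3 of the distal colon against 91.5 to 94.1, and Sdhb had 253 CPM in library 4 of the proximal small intestine against 236 to 238. In GFP-negative cells, Atp5c1 had 455 CPM in library 1 of the middle small intestine against 528 to 533, and Ndufa4 had 91.8 CPM in library 3 of the distal colon against 71.2 to 73.3.

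The GFP-high against GFP-negative effect differed between colon and small intestine, as colon minus small intestine on the log2 scale, for Ndufa4 (0.63), Ndufs5 (0.60), Sdhb (0.48), Uqcrc1 (0.51), Cox7a1 (2.06), Atp5b (0.36), Atp5c1 (0.47) and Atp5md (0.76). Between the distal and the proximal small intestine it differed for Cox6b2 (-2.75) and Atp5c1 (0.40). Between the distal and the proximal colon it was called for Cox6a2 with a fitted value of 8.77, which rests on libraries with no count and depends on the prior count.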

How the results depend on the processing

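Counts are subunit genes called of 81. The GFP-high against GFP-negative comparisons are named by gut part. With library totals alone the proximal small intestine had 33 calls, GFP-intermediate against GFP-negative in the small intestine 23, the distal-proximal colon comparison 2 in GFP-high cells and 4 in GFP-negative ones, that of the small intestine in GFP-intermediate cells 5, the organ difference 10 and the small intestinal part difference 2. With a fold of at least 1.5 required in addition, the proximal and distal small intestine had 30 and 36, the proximal and distal colon 11 and 19, GFP-high against GFP-intermediate 27 in the small intestine and 24 in the colon, GFP-intermediate against GFP-negative 5 and 2, colon against small intestine 3, 3 and 24 in GFP-high, GFP-intermediate and GFP-negative cells, distal against proximal colon 0 in GFP-negative cells, distal against proximal small intestine 1 in GFP-intermediate and 11 in GFP-negative cells, and the organ and small intestinal part differences 4 and 2.

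With the GC and length trend removed the proximal colon had 38, GFP-intermediate against GFP-negative in the colon 14, distal against proximal colon 2 in GFP-negative cells, and the distal-proximal small intestine comparison 7 in GFP-intermediate cells; with the replicate block as well these were 36, 15, 3 and 8, the distal colon had 49 and distal against proximal colon 3 in GFP-high cells. Without the 5 GFP-negative libraries numbered 4 the proximal and distal colon had 43 and 50, the distal-proximal colon comparison 3 in GFP-high cells and 0 in GFP-negative ones, and that of the small intestine 21 in GFP-negative cells. The DESeq2 Wald test gave 31 in the proximal colon, 2 for distal against proximal colon in GFP-negative cells and 5 for distal against proximal small intestine in GFP-intermediate cells. A fit of only the groups compared gave 2 in the proximal colon, 0, 2 and 0 along the colon in GFP-high, GFP-intermediate and GFP-negative cells, 18 and 2 along the small intestine in GFP-intermediate and GFP-negative cells, and 0 and 1 for the colon and small intestinal part differences. The other quasi-likelihood setting gave 0 and 3 along the colon in GFP-high and GFP-negative cells and 0 for the colon part difference. With no filter GFP-intermediate against GFP-negative in the colon had 2, distal against proximal colon in GFP-negative cells 0, distal against proximal small intestine in GFP-intermediate cells 1 and the small intestinal part difference 2. Upper quartile factors gave 7 for GFP-intermediate against GFP-negative in the colon and 2 for the small intestinal part difference, and DESeq2 size factors also 2 for that difference. The replicate block gave 2 along the colon in GFP-negative cells, and under the block alone every other count stayed within 1.5 times of the reported one, between 0 and 63. The cause of these moves was not tested.

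Leaving out 1 number or 1 library gave 37 to 62, 40 to 65 and 33 to 63 in the proximal, middle and distal small intestine, 2 to 46 in the proximal and 4 to 48 in the distal colon, 45 to 65 and 0 to 44 for GFP-high against GFP-intermediate in the small intestine and colon, 29 to 51 and 1 to 4 for GFP-intermediate against GFP-negative, 15 to 47, 27 to 50 and 52 to 66 for colon against small intestine, 0 to 3 and 0 to 1 along the colon in GFP-high and GFP-negative cells, 7 to 50, 0 to 3 and 18 to 46 along the small intestine, and 12 to 26, 0 to 1 and 1 to 12 for the organ, colon part and small intestinal part differences. Of 216 values of named genes, 72 kept their direction and side of the threshold under every alternative, and 1 reversed after a call: Cox4i1 in GFP-high against GFP-intermediate cells of the small intestine, with 0.11 with the GC and length trend removed and 0.11 with the block as well. Depth limits few subunit genes, Cox6a2 among them.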

Other observations

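Neighbouring metabolic and mitochondrial gene groups, none of them an oxidative phosphorylation subunit, gave the following counts in GFP-high against GFP-negative cells, from proximal to distal small intestine and then the proximal and distal colon. Over all genes 24.6%, 25.6%, 26.2%, 14.0% and 13.9% were called lower and 22.5%, 22.7%, 25.7%, 11.3% and 11.2% higher in these comparisons. Of 16 citric acid cycle genes 13, 10, 7, 2 and 3 were lower and 1, 2, 4, 0 and 0 higher, with Mdh2 at -2.08 ± 0.12 and Ogdh at -1.74 ± 0.13 on the log2 scale in the proximal small intestine. Of 14 fatty acid oxidation genes 11, 10, 11, 4 and 5 were lower and 0 higher in each part, with Hadh, which oxidises hydroxyacyl intermediates, at -1.32 in the proximal small intestine. Of 17 glycolysis genes 12, 12, 12, 9 and 8 were lower and 2, 1, 2, 1 and 0 higher. Hk2, a hexokinase, rose by 1.68 in the proximal small intestine.

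Of 77 mitochondrial ribosomal protein genes, 15, 25, 31, 11 and 13 were higher and 12, 11, 10, 1 and 4 lower in GFP-high against GFP-negative cells in the same order of parts; in the proximal small intestine both shares lie below those of all genes. In the small intestine 54 were higher and 1 lower in GFP-intermediate against GFP-negative cells, while 1 was higher and 44 lower in GFP-high against GFP-intermediate cells, where 29.3% and 30.5% of all genes were higher and lower in the first step and 10.4% and 13.4% in the other. These comparisons share libraries, and the values are given side by side.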
